A study of Mus musculus with 26 samples.

Results

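TCR Tg101 cells taken from the liver at the middle of leukemia progression were compared with TCR Tg101 cells from the spleen of mice without leukemia. TCR Tg101 cells are CD8+ T cells whose transgenic T cell receptor, cloned from a leukemia-reactive T cell and paired from Vα10 and Vβ1 chains, recognizes an undefined antigen of C1498, a murine acute leukemia line, on the MHC class I molecule Kb. The mid group holds liver libraries of leukemia-bearing mice at day 13 or 14 after transfer, and the control group holds spleen libraries at day 0 (naive cells) and at day 18 (untreated, leukemia-free). These were 10 of the 26 sequencing runs of the series, and after repeat runs of a library were summed they gave 6 of 15 libraries, 3 in each group. Donor and host cells in the labels are C57BL/6, 6 weeks of age and of the wild type, and the donor line carried the transgenic receptor on a Rag2-/- background in every group, so that no other receptor could be rearranged. For the mid group the cells were labelled with a division dye, transferred by vein into congenic hosts 1 day before C1498 cells, recovered from liver mononuclear cells and sorted by flow cytometry. The receptor came from 1 clone (T15) and was expressed from a transgene, so the data describe 1 specificity. The presence of leukemia, the organ and the isolation of cells from it changed together between the groups. Transfer and time in a host also set the mid libraries apart from the day 0 controls, which are labelled as naive cells. The parts of these factors in any difference cannot be told apart.

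The libraries carry the title series TG or XC, taken here as the batch. Control 1 (day 0) and mid 1 (day 13) belong to TG, and control 2 (day 0), control 3 (day 18), mid 2 (day 13) and mid 3 (day 14) to XC. Values of single libraries are given below in the order 1, 2, 3. They are CPM, the counts of a gene brought to a common library size and scaled by the TMM factor of each library, so they serve to compare 1 gene between libraries but not different genes with each other. A log2 fold change is the difference of mid liver minus control on the log2 scale in a model of 11 libraries with the group and the series as terms, ± its standard error, and adjusted p is that of edgeR's quasi-likelihood test after Benjamini-Hochberg adjustment over all 14616 genes tested. "Rose" and "fell" stand for an adjusted p below 0.05.

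A CD8+ T cell that meets its antigen leaves the naive state, divides, switches to glycolysis and biosynthesis, and makes granzymes, perforin and cytokines such as interferon-γ. It also turns on receptors that restrain it, among them PD-1 and LAG-3. When the antigen persists, as in chronic infection or cancer, these receptors stay on, the transcription factor TOX and the NR4A family accompany a dysfunctional state called exhaustion, and factors of naive and memory cells such as TCF-1 decline.

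Depth ranged from 28320039 to 65615912 estimated counts in the controls and from 28413340 to 71358287 in the mid libraries. No libraries of a group were duplicates (mean chi-square per gene of 58.9 or more). The labelled cell type held in all 6 libraries. Summed over 9 defining T cell genes, the level was 36141, 24024 and 21377 CPM in the controls and 37595, 22710 and 24534 CPM in the mid libraries, and none of the 9 changed. RNA of other cells stood high in the controls of day 0. Erythroid and platelet genes summed to 5164, 19794 and 134 CPM in the controls and to 215, 5.53 and 16.9 CPM in mid liver, dendritic cell and MHC class II genes to 1999, 1832 and 42.1 CPM against 74.3, 43.4 and 33.2 CPM, macrophage and monocyte genes to 1378, 182 and 13.8 CPM against 48.2, 12.6 and 19.0 CPM, and neutrophil genes to 274, 55.9 and 13.7 CPM against 3.73, 0.73 and 1.87 CPM. Control 3, from day 18, was thus the lowest control for all of these. For that reason counts or log2 differences of the gene groups below are also given against this control alone, in a model without the early liver libraries. Hepatocyte genes summed to 321, 22.98 and 2.42 CPM in the controls and 341, 37.3 and 6.21 CPM in mid liver. Most of the sum in the day 0 controls was *Trf*, at 313, 21.3 and 0.73 CPM in the controls against 37.7, 3.25 and 0.49 CPM. Of the 11 hepatocyte genes tested, 8 rose and none fell (72.7%, beside 17.3% of all genes that rose), with a median log2 fold change of 6.59. Albumin (*Alb*) alone stood at 0.0147, 0.00 and 0.0319 CPM in the controls and 83.1, 8.19 and 0.88 CPM in mid liver, and 5 of the 17 hepatocyte genes were at 0 in every control. The part of this RNA in the differences below was not tested.

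**Figure D1:**
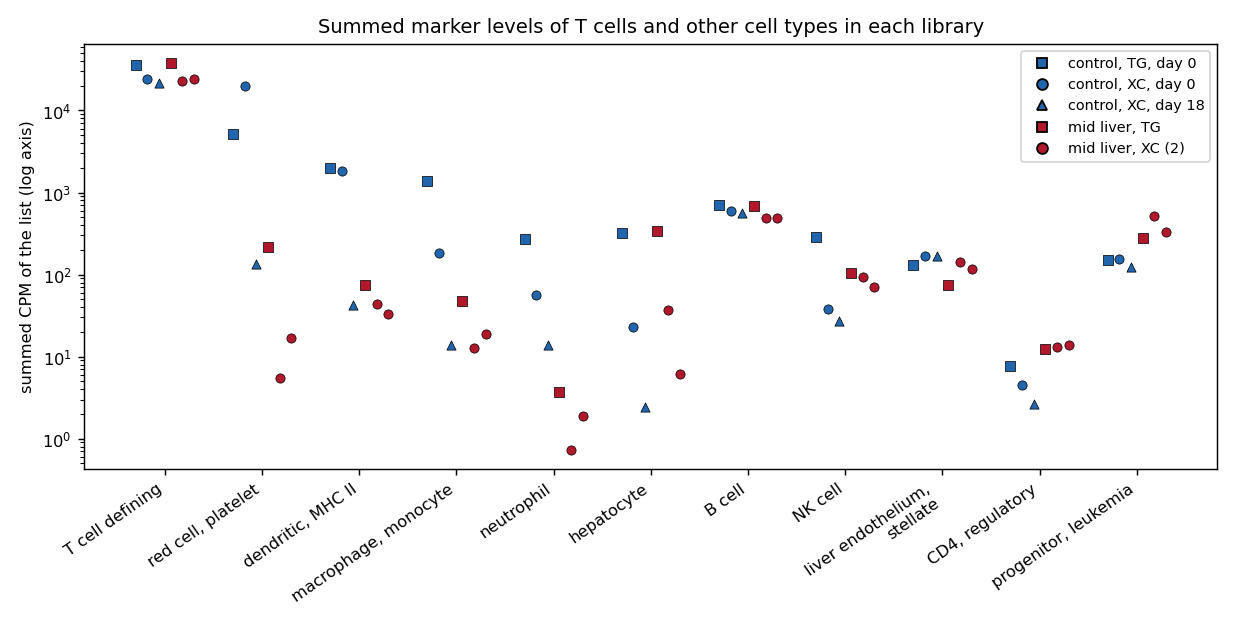
Summed CPM (log axis) of marker genes of T cells and of other cell types in each of the 6 libraries, blue for control and red for mid liver, with squares for TG, circles for XC and a triangle for the day 18 control. The T cell genes lie between 21377 and 37595 CPM in every library, whereas the erythroid sum of the day 0 controls, 5164 and 19794 CPM, is far above that of the other libraries.

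Of the 14616 genes tested, 4568 (31.3%) changed between mid liver and control. There were 2533 genes (17.3%) that rose and 2035 genes (13.9%) that fell. In 3108 genes (21.3%) all 3 mid libraries stood above all 3 controls, and in 3167 (21.7%) all stood below. The calls rest on single libraries: leaving out control 1, control 2, control 3, mid 1, mid 2 or mid 3 left 1, 1, 2336, 0, 3157 or 0 called genes, while 4590 to 6165 genes had an unadjusted p below 0.05 in these fits. The model also holds 2 early liver libraries that differ from each other, and without them the same omissions left 4098, 4669, 5561, 3476, 5453 and 3712 called genes. In the model without early liver and with the day 18 control alone, 11.1% of all genes were higher and 4.17% lower in mid liver. These last results were added after the data were seen.

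**Figure D2:**
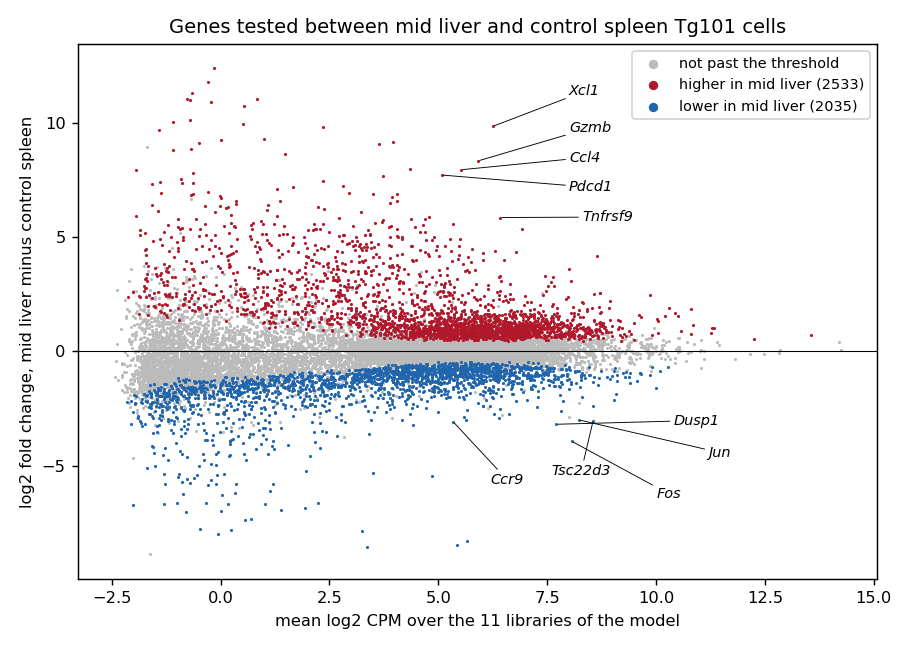
Log2 fold change of mid liver minus control against the mean log2 CPM over 11 libraries for each tested gene, with the 2533 genes that rose in red, the 2035 that fell in blue and the rest in grey. The labelled genes are the 5 top rises and the 5 top falls among genes of mean log2 CPM of at least 5 whose groups did not overlap.

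Among the 1658 called genes of mean log2 CPM of at least 5 whose groups did not overlap (1131 higher, 527 lower), the largest rises were those of a chemokine, a protease, a second chemokine and a pair of activation receptors. *Xcl1* (chr1:164931644-164935527, GRCm38), which encodes a chemokine that draws cross-presenting dendritic cells, stood at 1.10, 0.40 and 2.39 CPM in the controls and at 2349, 889.6 and 879 CPM in mid liver. *Gzmb* (chr14:56258838-56262260), the gene of granzyme B, stood at 3.10, 2.01 and 1.75 CPM against 989.8, 273 and 945 CPM. Every mid library was thus above every control by a wide margin, and mid 2 held less *Gzmb* than the other two. Their log2 fold changes were 9.85 ± 1.83 and 8.33 ± 1.43 (adjusted p = 0.022 for each). *Ccl4* (chr11:83662584-83664683), encoding the chemokine MIP-1β, was at 7.87, 2.41 and 0.35 CPM against 1682, 439.9 and 310.4 CPM, and *Tnfrsf9* (chr4:150914562-150946102), encoding the costimulatory receptor 4-1BB, at 5.68, 3.25 and 14.4 CPM against 479, 474 and 396 CPM. The TG library, mid 1, was highest for *Ccl4*, whereas the 3 mid libraries were close for *Tnfrsf9*. Log2 fold changes were 7.94 ± 1.60 (adjusted p = 0.022) and 5.85 ± 1.32 (adjusted p = 0.0237).

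*Pdcd1* (chr1:94038305-94052553), which encodes PD-1, completed the 5 with 1.10, 1.37 and 2.39 CPM in the controls and 389, 227 and 399.9 CPM in mid liver. The groups were far apart and the log2 fold change was 7.71 ± 1.44 (adjusted p = 0.022). Against the day 18 control alone it was 6.95 (adjusted p = 0.0015).

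The largest falls included the AP-1 genes *Fos* and *Jun*, immediate early genes of growth and stress signals. *Fos* (chr12:85473890-85477273) stood at 1489, 657 and 1079 CPM in the controls and at 27.9, 191 and 94.2 CPM in mid liver, and *Jun* (chr4:95049034-95052222) at 779, 817 and 879 CPM against 16.8, 279.7 and 218 CPM. *Dusp1* (chr17:26505590-26562128), which encodes a phosphatase that inactivates MAP kinases, was at 828, 609 and 335 CPM against 16.0, 141 and 166 CPM. For each of the 3, mid 1 of the TG series was by far the lowest library. Log2 fold changes were −3.93 ± 1.04 (adjusted p = 0.0315), −2.998 ± 0.90 (adjusted p = 0.0421) and −3.19 ± 1.01 (adjusted p = 0.0479), and without control 1, the other TG library, they were −2.45, −1.96 and −1.66. *Tsc22d3* (chrX:140539528-140600659), the glucocorticoid-induced gene of GILZ, was at 1719, 1271 and 639.6 CPM against 89.2, 250.5 and 128 CPM, and *Ccr9* (chr9:123678439-123784330), the gut-homing receptor, at 194, 218 and 173 CPM against 16.1, 39.0 and 13.5 CPM. The groups did not overlap for either gene, and the log2 fold changes were −3.03 ± 0.67 (adjusted p = 0.0231) and −3.08 ± 0.77 (adjusted p = 0.0276). *Ccr9* did not pass against the day 18 control alone (adjusted p = 0.098).

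**Figure D3:**
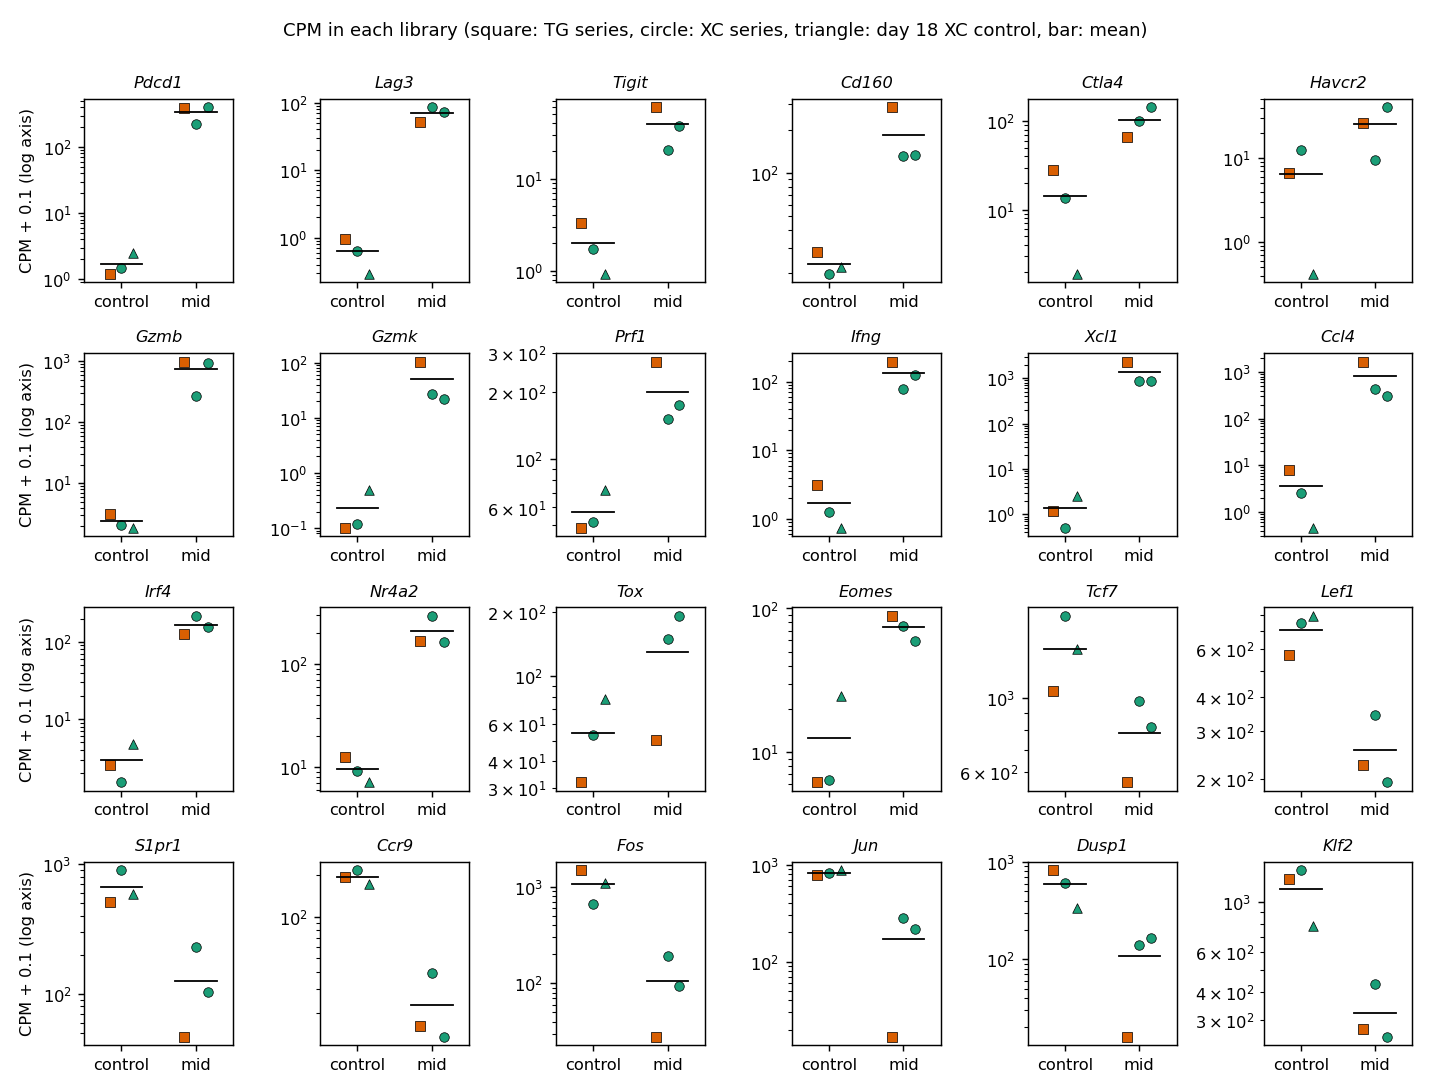
CPM plus 0.1 (log axis) in each control and mid library for 24 genes, with squares for TG, circles for XC, a triangle for the day 18 control and a bar for the mean of 3. *Pdcd1*, *Gzmb* and *Xcl1* are separated by more than any spread within a group, *Havcr2* overlaps between groups, and *Fos*, *Jun* and *Dusp1* are lowest in the TG mid library.

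Co-inhibitory receptors were higher as a group, but not uniformly. Of 15 tested, 6 rose and none fell, with a median log2 fold change of 1.61 against −0.06 over all tested genes. *Lag3*, encoding the MHC class II-binding receptor LAG-3, stood at 0.87, 0.53 and 0.19 CPM in the controls and 52.2, 84.8 and 71.3 CPM in mid liver (log2 fold change 6.93 ± 1.35, adjusted p = 0.022). *Tigit*, a receptor for CD155, stood at 3.25, 1.63 and 0.83 CPM against 59.2, 20.6 and 37.5 CPM (4.41 ± 0.66, adjusted p = 0.0217). *Cd160*, a receptor for HVEM, was at 27.8, 19.7 and 21.9 CPM against 286, 130.3 and 133 CPM (2.89 ± 0.69, adjusted p = 0.0259). In all 3 genes the groups were clearly apart, with the TG mid library highest for *Tigit* and *Cd160*. *Btla* and *Cd101* rose less, by 0.98 ± 0.29 (adjusted p = 0.0347) and 0.90 ± 0.26 (adjusted p = 0.0344) on the log2 scale, and did not pass against the day 18 control alone (adjusted p = 0.062 and 0.31).

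*Ctla4*, which encodes the CD28 antagonist CTLA-4, did not pass the test, at 27.98, 13.4 and 1.78 CPM in the controls and 66.0, 101 and 144 CPM in mid liver (log2 fold change 2.91 ± 1.12, adjusted p = 0.082). The groups did not overlap, but the ratio of the highest to the lowest library was larger among the controls than among the mid libraries. *Havcr2*, the gene of TIM-3, was at 6.47, 12.4 and 0.32 CPM against 26.4, 9.38 and 40.1 CPM, so that control 2 exceeded mid 2 (1.97 ± 1.33, adjusted p = 0.272). Dendritic cells and macrophages also express TIM-3, and the day 0 controls, in which it was higher, are those with their markers. The part of these cells in its level was not tested. Against the day 18 control alone *Ctla4* differed by 6.13 (adjusted p = 0.0002) and *Havcr2* by 6.29 (adjusted p = 0.048), and 9 of the 15 receptors were higher and 1 lower, beside the 11.1% and 4.17% of all genes.

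Of 13 costimulatory receptors, 8 rose and none fell (median log2 fold change 0.74), and 8 were also higher against the day 18 control alone. Besides *Tnfrsf9* these included *Tnfrsf4*, encoding OX40, at 3.54, 2.05 and 1.31 CPM in the controls and 197, 43.4 and 71.1 CPM in mid liver (log2 fold change 5.34 ± 0.85, adjusted p = 0.0217). *Slamf1*, a homophilic adhesion and signalling receptor, was at 13.5, 11.5 and 11.3 CPM against 97.4, 129.6 and 76.9 CPM (3.08 ± 0.74, adjusted p = 0.0259). Receptors that support activation thus rose alongside those that restrain it.

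Genes of the killing machinery were higher in mid liver: 11 of 15 tested rose and none fell, with a median log2 fold change of 2.21, and 10 were higher against the day 18 control alone. *Prf1*, the gene of the pore-forming protein perforin, was at 48.2, 51.3 and 71.6 CPM in the controls and 276, 151 and 175 CPM in mid liver (log2 fold change 1.75 ± 0.33, adjusted p = 0.022). *Gzma*, granzyme A, was at 8.999, 7.50 and 0.48 CPM against 321, 45.2 and 115 CPM (4.61 ± 1.40, adjusted p = 0.0438), with a wide spread in both groups. *Gzmk*, granzyme K, had 0, 1 and 12 counts in the controls and 6258, 786 and 630 counts in mid liver, and *Gzmc* 5, 1 and 3 counts against 368, 146 and 81 counts. The granzyme genes are similar in sequence and reads may be shared among them. The rise of *Gzma* against the day 18 control alone had an adjusted p of 0.02. *Fasl*, the ligand of the death receptor FAS, was at 2.10, 1.77 and 0.19 CPM against 35.4, 29.0 and 31.3 CPM (4.59 ± 1.20, adjusted p = 0.0303). *Serpinb9* and *Serpinb6b*, serpins of the family that protects cells from their own granzymes, rose by 2.67 ± 0.55 (adjusted p = 0.0221) and 2.92 ± 0.56 (adjusted p = 0.022) on the log2 scale. *Nkg7*, a granule protein gene, was already well expressed in the controls, at 946, 466 and 571 CPM, and reached 3422, 1122 and 1264 CPM (1.42 ± 0.25, adjusted p = 0.0217). *Tnfsf10*, encoding TRAIL, had the smallest rise of the 11 (0.87 ± 0.28, adjusted p = 0.0441), and it was 0.54 without mid 3 and did not pass against the day 18 control alone (adjusted p = 0.32).

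On the deposited TPM scale, which allows genes to be compared because it accounts for length, the most abundant cytotoxic transcripts of mid liver were *Nkg7*, with a mean of 2039 TPM (829 in controls), and *Srgn*, with 523 (316 in controls). *Gzmb* came next with 422 TPM, against 1.48 in the controls. NK cell markers summed to 287, 38.6 and 26.9 CPM in the controls and 106, 92.4 and 70.2 CPM in mid liver. Most of the sum was *Tyrobp* (149 CPM) and *Fcer1g* (126 CPM) in control 1 and *Eomes* (88.9, 75.8 and 59.6 CPM) in mid liver. *Ncr1*, *Klra8* and *Klra4* stood at 0.595 CPM or less in each mid library. The sums thus do not measure NK cells alone, and the part of NK cells in these levels was not tested. Killer lectin receptors, shared by NK cells and activated CD8+ T cells, had 3 of 10 members that rose (30%, beside 17.3% of all genes) and none that fell. The median log2 fold change was 1.89, and 3.48 against the day 18 control alone. *Klrk1*, encoding NKG2D, was at 11.3, 7.41 and 2.20 CPM against 131, 155 and 149 CPM (log2 fold change 4.45 ± 1.15, adjusted p = 0.0291), and *Klrc1*, encoding the inhibitory receptor NKG2A, at 1.44, 0.665 and 0.351 CPM against 60.1, 96.4 and 151 CPM (6.88 ± 1.46, adjusted p = 0.0227). *Klrc2* rose too, but its sequence is close to that of *Klrc1* and reads may be divided between them.

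Cytokine and chemokine genes included some of the largest differences. Of 19 tested, 15 rose and none fell, the median log2 fold change was 4.11, and 14 were higher against the day 18 control alone. *Ifng*, encoding interferon-γ, stood at 3.01, 1.18 and 0.64 CPM in the controls and 196, 78.5 and 124 CPM in mid liver (log2 fold change 6.47 ± 1.35, adjusted p = 0.0227). *Tnf* was at 8.41, 2.39 and 13.4 CPM against 92.1, 48.5 and 31.1 CPM (2.71 ± 0.69, adjusted p = 0.0281), and its groups, like those of *Ifng*, did not overlap. *Ccl3*, encoding MIP-1α, was at 3.18, 1.06 and 0.10 CPM against 604, 176 and 203 CPM (7.98 ± 1.63, adjusted p = 0.0221). *Ccl5*, encoding RANTES, was at 32.6, 9.04 and 5.90 CPM against 351, 202 and 131 CPM (4.11 ± 1.26, adjusted p = 0.0444). For each of these 4 genes the TG mid library was the highest of the 6, and none of the groups overlapped.

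*Il2*, the growth factor of T cells, had 3, 0 and 1 counts in the controls and 3955, 694 and 459 counts in mid liver. *Csf2*, encoding GM-CSF, had 7, 0 and 0 counts against 649, 68 and 66 counts. *Ccl1* had no count in any control and 833, 31 and 251 counts in mid liver, which made it at least 122-fold higher, taking 3 counts per control library as the floor (0.0656 CPM). *Il2* (adjusted p = 0.062) and *Ccl1* (adjusted p = 0.12) did not pass against the day 18 control alone. Members of the TNF ligand family rose as well. *Tnfsf11*, encoding RANKL, stood at 0.43, 0.44 and 0.22 CPM against 19.2, 33.5 and 44.3 CPM (log2 fold change 6.31 ± 1.34, adjusted p = 0.0227), and *Tnfsf14*, encoding LIGHT, at 1.28, 1.16 and 1.75 CPM against 86.8, 59.8 and 33.4 CPM (5.33 ± 1.17, adjusted p = 0.0231). *Tgfb1* (1.06 ± 0.26, adjusted p = 0.024) and *Tnfsf8* (1.09 ± 0.27, adjusted p = 0.0244) had smaller rises. *Ltb*, encoding lymphotoxin-β, did not pass, at 971, 797 and 795 CPM against 757, 596 and 458 CPM (−0.52 ± 0.24, adjusted p = 0.114). *Il10* stayed low, at 0.47, 0.08 and 0.19 CPM against 1.02, 0.77 and 0.67 CPM, and did not pass (adjusted p = 0.0984).

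Of 32 transcription factors linked to effector function or exhaustion, 18 rose and none fell (median log2 fold change 1.72), and 19 were higher against the day 18 control alone. *Irf4*, a factor induced by strong receptor signals, stood at 2.48, 1.42 and 4.65 CPM in the controls and 126, 217 and 156 CPM in mid liver (log2 fold change 5.87 ± 1.17, adjusted p = 0.022). *Tbx21*, the gene of T-bet, was at 6.60, 8.09 and 14.4 CPM against 172, 165 and 205 CPM (4.24 ± 0.81, adjusted p = 0.022). *Nr4a2*, a nuclear receptor induced through NFAT, was at 12.5, 9.06 and 6.98 CPM against 168, 296 and 163 CPM (4.47 ± 0.91, adjusted p = 0.022). These 3 were separated between groups by more than the spread within either. *Nr4a3*, *Egr2* and *Egr3*, further genes induced by receptor signals, rose by 4.18 ± 0.97 (adjusted p = 0.0248), 3.36 ± 0.90 (adjusted p = 0.0321) and 3.01 ± 0.82 (adjusted p = 0.0332) on the log2 scale, but did not pass against the day 18 control alone (adjusted p = 0.058, 0.058 and 0.087). *Nr4a1*, at 127, 99.8 and 37.1 CPM against 337, 838 and 313 CPM (2.56 ± 0.98, adjusted p = 0.0797), and *Egr1*, at 72.6, 57.3 and 129 CPM against 142, 371 and 197 CPM (1.41 ± 0.49, adjusted p = 0.0575), did not pass the main test.

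*Eomes*, encoding a T-box factor of effector and memory cells, was at 6.04, 6.29 and 24.6 CPM in the controls and 88.9, 75.8 and 59.6 CPM in mid liver (log2 fold change 2.61 ± 0.81, adjusted p = 0.0454). The day 18 control was the highest of the controls. *Bhlhe40*, a repressor of *Il10* in T cells, was at 8.26, 7.596 and 1.34 CPM against 77.2, 154 and 255 CPM (4.59 ± 1.22, adjusted p = 0.0312). *Tox* itself rose modestly, from 31.8, 53.1 and 77.8 CPM to 50.4, 149 and 192 CPM (1.16 ± 0.24, adjusted p = 0.022), and the levels overlapped between groups: the TG mid library, at 50.4 CPM, was below both XC controls, while within each series mid liver was above control. It did not pass against the day 18 control alone (adjusted p = 0.058). Its relative *Tox2* was at 0.235, 0.285 and 0.0319 CPM against 5.01, 5.04 and 22.1 CPM (5.60 ± 1.36, adjusted p = 0.0264). *Prdm1*, encoding BLIMP-1, rose to 6.40, 6.82 and 16.8 CPM from 1.57, 1.42 and 1.08 CPM (2.76 ± 0.57, adjusted p = 0.022). *Nfatc1* (1.30 ± 0.28, adjusted p = 0.022), *Runx2* (2.47 ± 0.52, adjusted p = 0.022) and *Batf* (0.75 ± 0.19, adjusted p = 0.0242) rose too, whereas *Myb* did not pass (2.14 ± 0.73, adjusted p = 0.0602).

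Factors of naive and memory cells moved the other way. None of 25 rose and 14 fell, with a median log2 fold change of −1.12, and 7 were lower against the day 18 control alone. *Lef1*, the partner of TCF-1, stood at 574, 748 and 798 CPM in the controls and 225, 344 and 194 CPM in mid liver (log2 fold change −1.47 ± 0.38, adjusted p = 0.0269). *Klf2*, which drives the genes of lymphocyte egress, was at 1264, 1388 and 787 CPM against 275, 436 and 254 CPM (−1.85 ± 0.50, adjusted p = 0.03). *Foxo1*, a factor of quiescence and homing, was at 378, 508 and 377 CPM against 111, 193 and 169 CPM (−1.45 ± 0.33, adjusted p = 0.0229). In each, all mid libraries were below all controls. *Satb1*, a genome organizer (−1.98 ± 0.48, adjusted p = 0.0248), *Klf3* (−1.92 ± 0.50, adjusted p = 0.0279), *Klf7* (−1.65 ± 0.28, adjusted p = 0.0217) and *Bcl11b* (−1.16 ± 0.26, adjusted p = 0.0227) fell as well, of which *Satb1* (adjusted p = 0.088) and *Klf3* (adjusted p = 0.15) did not pass against the day 18 control alone.

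*Tcf7*, the gene of TCF-1, did not pass the test: it stood at 1047, 1755 and 1395 CPM in the controls and 559, 979 and 817 CPM in mid liver (log2 fold change −0.84 ± 0.34, adjusted p = 0.083). Its groups did not overlap. *Bach2*, a repressor of effector genes, likewise did not pass (−0.56 ± 0.22, adjusted p = 0.083), and *Id3*, known from memory precursors, was at 77.4, 59.1 and 137 CPM against 362, 220.2 and 202 CPM (1.39 ± 0.49, adjusted p = 0.0599), opposite to the group. *Zfp36l2*, encoding an RNA-binding protein that promotes quiescence, fell by 1.23 ± 0.40 (adjusted p = 0.0461) on the log2 scale, but it was at −0.73 without control 1 and at −0.25 against the day 18 control alone (adjusted p = 0.41). *Klf6* stood at 1679, 969 and 397 CPM against 169, 199 and 198 CPM (−2.39 ± 0.65, adjusted p = 0.0322), so the day 18 control was nearer to mid liver than the controls of day 0 (adjusted p = 0.081 against it alone).

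Genes of a list of lymphoid homing and egress were lower. The list also holds cytokine receptors and other genes such as *Actn1*, *Igfbp4* and *Bcl2*, the last of which is counted in the BCL2 family too. Of 19 tested, 13 fell and none rose, with a median log2 fold change of −1.80, and 5 were lower against the day 18 control alone. *S1pr1*, the receptor for egress into blood and lymph, stood at 507, 906 and 593 CPM in the controls and 46.6, 229 and 103 CPM in mid liver (log2 fold change −2.63 ± 0.58, adjusted p = 0.023). *Ccr7*, the lymph node homing receptor, was at 1303, 1347 and 969 CPM against 533, 575 and 366 CPM (−1.30 ± 0.34, adjusted p = 0.0272). Mid 2 was the highest mid library for both, and still below every control. *Il7r*, the receptor chain for the survival cytokine IL-7, was at 322, 335 and 451 CPM against 31.6, 161 and 48.0 CPM (−2.43 ± 0.68, adjusted p = 0.0359). *Il6ra* (−2.41 ± 0.61, adjusted p = 0.0281), *Cxcr4* (−2.38 ± 0.62, adjusted p = 0.0292) and *Igfbp4* (−2.73 ± 0.80, adjusted p = 0.0398) fell by similar amounts. Against the day 18 control alone *Il7r* (adjusted p = 0.12), *Il6ra* (adjusted p = 0.11) and *Igfbp4* (adjusted p = 0.14) did not pass.

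Of 24 receptors for entry into tissues 7 rose and 3 fell (29.2% and 12.5%, beside 17.3% and 13.9% of all genes), and 8 were higher and 1 lower against the day 18 control alone. *Cxcr3*, the receptor for interferon-induced chemokines, stood at 23.5, 8.09 and 4.11 CPM in the controls and 300.1, 104 and 220.1 CPM in mid liver (log2 fold change 4.39 ± 0.87, adjusted p = 0.022). *Itgb1*, the integrin β1 chain, was at 50.1, 83.7 and 73.9 CPM against 196, 598 and 1500.4 CPM (3.23 ± 0.75, adjusted p = 0.0244). The groups were apart for both, although *Itgb1* differed widely among the mid libraries and did not pass against the day 18 control alone (adjusted p = 0.097). *Itgae*, encoding CD103, which binds E-cadherin of epithelia, fell with *Ccr9*, from 95.3, 163 and 217 CPM to 11.8, 36.5 and 18.9 CPM (−2.85 ± 0.69, adjusted p = 0.0263). *Xcr1*, the receptor for XCL1 and a marker of dendritic cells, fell too (−1.72 ± 0.55, adjusted p = 0.0447), with 13.1 and 14.3 CPM in the day 0 controls that hold dendritic cell RNA and 3.76 CPM in the day 18 control. Its value without control 2 was −1.10, and it was −0.32 against the day 18 control alone (adjusted p = 0.74).

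Among 24 genes of cytokine receptors, STAT and SOCS proteins, 6 rose and 1 fell (25% and 4.17%, beside 17.3% and 13.9% of all genes). The median log2 fold change was 0.27, and 0.33 against the day 18 control alone. *Il2ra*, the high-affinity chain of the IL-2 receptor, stood at 1.03, 0.72 and 1.85 CPM in the controls and 81.6, 129 and 135 CPM in mid liver (log2 fold change 6.57 ± 1.24, adjusted p = 0.022). *Cish*, a STAT5-induced inhibitor of cytokine and receptor signals, was at 11.4, 8.28 and 8.54 CPM against 90.0, 64.1 and 73.5 CPM (3.02 ± 0.62, adjusted p = 0.0222). *Ifngr2*, a chain of the interferon-γ receptor, was the member that fell, from 80.3, 84.6 and 62.0 CPM to 7.16, 13.4 and 3.67 CPM (−3.24 ± 0.72, adjusted p = 0.0231), opposite in direction to *Ifng*. The groups did not overlap for any of these 3.

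In the core of T cell receptor signalling 2 of 20 genes rose and 2 fell, a smaller share than the 31.3% of all genes that changed, and the median log2 fold change was −0.06. *Zap70*, the kinase that binds the phosphorylated receptor, rose (134, 158 and 159 CPM against 338, 348 and 287 CPM, log2 fold change 1.11 ± 0.23, adjusted p = 0.022), as did *Fyn* (0.90 ± 0.24, adjusted p = 0.0281), whereas *Themis* (−1.25 ± 0.29, adjusted p = 0.023) fell. Of the 20, 1 was higher and 3 were lower against the day 18 control alone, where *Fyn* did not pass (adjusted p = 0.12). Of 31 inhibitors of the pathway 10 rose and 8 fell (32.3% and 25.8%, beside 17.3% and 13.9% of all genes). Their median log2 fold change was 0.19, and 0.11 against the day 18 control alone. *Spry1*, an inhibitor of the RAS and MAP kinase route, stood at 1.13, 0.82 and 1.34 CPM in the controls and 151, 119.8 and 114 CPM in mid liver (6.88 ± 1.31, adjusted p = 0.022). *Dusp4*, a MAP kinase phosphatase, was at 2.23, 3.48 and 1.47 CPM against 20.2, 57.0 and 66.4 CPM (4.11 ± 0.997, adjusted p = 0.0263), and *Rnf128*, encoding the ubiquitin ligase GRAIL, at 0.559, 0.855 and 1.53 CPM against 3.36, 4.44 and 5.29 CPM (2.23 ± 0.38, adjusted p = 0.0217). Members of the same phosphatase family went opposite ways: *Dusp10* was at 204, 201 and 115 CPM against 24.8, 52.0 and 54.1 CPM (−2.06 ± 0.54, adjusted p = 0.0294) and *Dusp1* fell as given above. *Pag1*, an adaptor that recruits the inhibitory kinase CSK, fell by 1.62 ± 0.33 (adjusted p = 0.022) on the log2 scale.

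**Figure D4:**
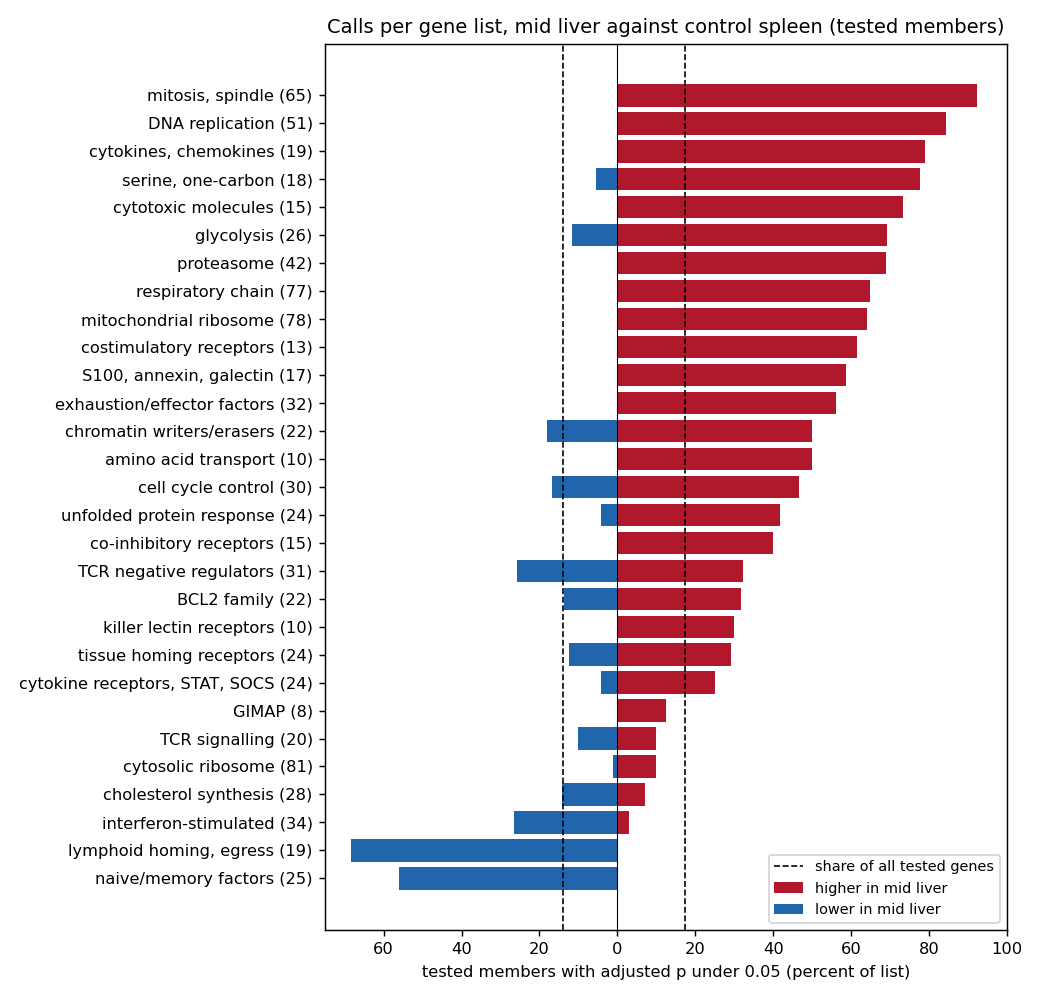
Share of the tested members of each gene list (number tested in parentheses) that rose (red, to the right) or fell (blue, to the left) with an adjusted p below 0.05. Dashed lines mark the shares over all tested genes, 17.3% and 13.9%; the mitosis and DNA replication lists lie at the top, and the lymphoid homing and naive or memory factor lists hold falls alone.

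Genes of cell division had the highest share of rises. Of 65 genes of mitosis and the spindle, 60 rose and none fell (median log2 fold change 4.14), and of 51 genes of DNA replication 43 rose and none fell (1.67), beside 17.3% of all genes. Against the day 18 control alone, 57 and 27 were higher. Genes of replication are known to be driven by E2F factors before S phase, and those of mitosis by complexes that bind the cell cycle homology region, or CHR, and CCAAT boxes. The sequences of RefSeq (GRCm38.p6) upstream of the start sites are shown for 4 of the genes that rose, as examples of the letters counted below. They are the largest rises of each list with an entry and a window that lies outside the annotated gene or, for *Bub1*, overlaps it by 6 bases, except that the second replication gene, *Chaf1a*, was chosen after its values were seen as the largest rise with E2F-type letters. The 200 bases before each start site are written 5′ to 3′, with capitals for E2F-type letters (TTTGGCGC, TTTCCCGC, TTTGGCGG or TTTCGCGC), the CHR (TTTGAA) and CCAAT, on either strand.
Mcm10 promoter, chr2:5012792-5012991, minus strand: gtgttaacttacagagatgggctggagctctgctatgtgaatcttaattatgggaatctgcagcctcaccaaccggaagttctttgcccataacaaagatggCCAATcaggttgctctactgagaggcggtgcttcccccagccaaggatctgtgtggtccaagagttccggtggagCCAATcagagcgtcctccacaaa
Chaf1a promoter, chr17:56040216-56040415, plus strand: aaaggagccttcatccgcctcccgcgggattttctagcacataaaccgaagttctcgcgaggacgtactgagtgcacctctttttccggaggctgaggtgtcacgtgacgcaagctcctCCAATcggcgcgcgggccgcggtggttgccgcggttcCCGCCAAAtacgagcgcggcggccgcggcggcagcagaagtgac
Ccnb2 promoter, chr9:70421555-70421754, minus strand: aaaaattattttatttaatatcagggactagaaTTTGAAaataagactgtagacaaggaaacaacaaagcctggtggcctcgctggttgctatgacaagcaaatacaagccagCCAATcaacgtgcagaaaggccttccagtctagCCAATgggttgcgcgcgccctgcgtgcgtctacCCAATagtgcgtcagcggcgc
Bub1 promoter, chr2:127831860-127832059, minus strand: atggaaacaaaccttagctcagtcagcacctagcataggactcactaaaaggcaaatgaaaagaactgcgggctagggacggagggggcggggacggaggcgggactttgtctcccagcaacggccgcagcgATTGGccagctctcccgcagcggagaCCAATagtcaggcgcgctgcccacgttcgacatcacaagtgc

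The *Mcm10* and *Bub1* windows each held 2 CCAAT boxes, the *Ccnb2* window 3 CCAAT boxes and 1 CHR, and the *Chaf1a* window 1 CCAAT box and 1 run of E2F-type letters. Over the 300 bases around the start site, E2F-type letters were found in 37.7% of 53 promoters of replication genes, 11.9% of 59 promoters of mitotic genes and 2.37% of all 32851 promoters. The CHR was found in 15.1%, 69.5% and 17.9%, CCAAT in 54.7%, 72.9% and 37.4%, and both in 1 promoter in 5.66%, 57.6% and 6.95%. The promoter table covered 43 of the 51 replication genes and 54 of the 65 mitotic genes. A match of letters is a description of these windows and does not show binding.

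*Mcm10*, which helps to load and activate the replicative helicase, stood at 1.82, 2.09 and 0.86 CPM in the controls and 55.1, 32.6 and 77.7 CPM in mid liver (log2 fold change 5.10 ± 1.17, adjusted p = 0.0242). *Chaf1a*, a subunit of the chromatin assembly factor that places histones on new DNA, rose by 4.37 ± 0.85 (adjusted p = 0.022) on the log2 scale. *Cdc6*, which loads the helicase at origins, was at 3.41, 1.01 and 1.05 CPM against 107, 35.7 and 107 CPM (5.68 ± 1.26, adjusted p = 0.0231), and *Rrm2*, the ribonucleotide reductase subunit, at 9.20, 7.31 and 4.11 CPM against 163, 132 and 350.3 CPM (4.92 ± 1.18, adjusted p = 0.0259). *Ccnb2*, a mitotic cyclin, was at 6.03, 3.29 and 0.67 CPM against 225, 91.4 and 189.7 CPM (5.77 ± 1.31, adjusted p = 0.0239), *Aurkb*, a kinase of chromosome segregation, rose by 5.60 ± 1.31 (adjusted p = 0.0251), and *Bub1*, a kinase of the spindle checkpoint, by 5.57 ± 1.34 (adjusted p = 0.0261). The control and mid libraries did not overlap for any of these genes, and mid 2 was the lowest mid library for each of those whose levels are given.

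Of 30 genes that control the cell cycle, 14 rose and 5 fell (46.7% and 16.7%, beside 17.3% and 13.9% of all genes). The share that fell was thus close to that of all genes. *E2f1* stood at 5.79, 4.54 and 2.71 CPM in the controls and 97.5, 26.5 and 62.5 CPM in mid liver (log2 fold change 3.77 ± 0.80, adjusted p = 0.0227), and the repressor *E2f8* at 1.07, 0.65 and 0.45 CPM against 31.0, 16.9 and 40.9 CPM (5.33 ± 1.12, adjusted p = 0.0227). *Cdkn3*, encoding a phosphatase that acts on cyclin-dependent kinases, was at 2.22, 0.722 and 0.574 CPM against 37.5, 7.80 and 16.4 CPM (4.15 ± 0.72, adjusted p = 0.0217). Of the 30, 14 were higher and 1 lower against the day 18 control alone. Among the 5 that fell were *Cdkn1b*, *Btg1* and *Tob1*, which are known to restrain division. *Cdkn1b*, encoding p27, was at 74.0, 61.3 and 41.9 CPM against 19.7, 30.9 and 20.6 CPM (−1.32 ± 0.35, adjusted p = 0.0279), *Btg1* at 1357, 1145 and 887 CPM against 320.2, 626 and 352 CPM (−1.39 ± 0.37, adjusted p = 0.0282), and *Tob1* fell by 1.75 ± 0.49 (adjusted p = 0.0341). Of these 3 falls, *Tob1* alone was lower against the day 18 control by itself (adjusted p = 0.038, against 0.12 for *Cdkn1b* and 0.14 for *Btg1*).

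Metabolic genes of dividing cells were higher. In glycolysis 18 of 26 genes rose and 3 fell (median log2 fold change 1.47), and 17 were higher and 1 lower against the day 18 control alone. *Tpi1*, triose phosphate isomerase, stood at 89.8, 60.8 and 57.6 CPM in the controls and 1027, 766 and 723 CPM in mid liver (log2 fold change 3.61 ± 0.43, adjusted p = 0.0168). *Hk2*, the inducible hexokinase, was at 2.53, 1.31 and 1.43 CPM against 34.8, 42.4 and 33.4 CPM (4.42 ± 0.89, adjusted p = 0.022), and *Slc16a3*, the lactate exporter MCT4, at 2.56, 1.97 and 1.98 CPM against 47.2, 74.4 and 51.1 CPM (4.71 ± 0.52, adjusted p = 0.0168). The libraries of each group were close to one another for these 3 genes. *Pdk1*, which keeps pyruvate out of the mitochondrion, fell (−1.08 ± 0.35, adjusted p = 0.048), but did not pass against the day 18 control alone (adjusted p = 0.054).

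Serine and one-carbon genes, which feed nucleotide synthesis, had 14 of 18 members that rose and 1 that fell, and 10 were higher and none lower against the day 18 control alone. *Shmt1* stood at 11.5, 6.82 and 13.3 CPM in the controls and 239, 132 and 109.6 CPM in mid liver (log2 fold change 3.82 ± 0.84, adjusted p = 0.0231), *Psat1* rose by 3.25 ± 0.66 (adjusted p = 0.022) and *Mthfd2* by 2.19 ± 0.42 (adjusted p = 0.022). Of 10 amino acid transporters 5 rose and 4 were higher against the day 18 control alone, among both *Slc7a5*, the large neutral amino acid carrier, at 38.0, 66.3 and 70.4 CPM against 198, 274 and 302 CPM (2.18 ± 0.46, adjusted p = 0.022). In cholesterol synthesis and uptake 2 of 28 genes rose and 4 fell (7.14% and 14.3%, beside 17.3% and 13.9% of all genes), with a median of 0.17. *Abca1*, the cholesterol exporter, fell (26.1, 51.2 and 54.4 CPM against 1.02, 12.7 and 5.86 CPM, −3.005 ± 0.79, adjusted p = 0.0306), although not past the threshold against the day 18 control alone (adjusted p = 0.14). Of the cholesterol genes, none rose and 1 fell against that control.

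Of 24 genes of the unfolded protein response and protein folding in the endoplasmic reticulum, 10 rose and 1 fell, and 11 were higher and none lower against the day 18 control alone. *Sdf2l1* stood at 55.3, 26.1 and 29.0 CPM in the controls and 599, 111 and 247 CPM in mid liver (log2 fold change 2.93 ± 0.70, adjusted p = 0.0257), and *Pdia6*, a disulfide isomerase, at 138, 126 and 133 CPM against 589, 369 and 584 CPM (1.94 ± 0.46, adjusted p = 0.0244). *Dnajb9*, the one that fell, was at 43.1, 71.0 and 18.8 CPM against 8.80, 18.3 and 14.9 CPM (−1.75 ± 0.49, adjusted p = 0.034). Its day 18 control lay near the mid libraries, with a difference of −0.13 (adjusted p = 0.78).

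Interferon-stimulated genes were lower, in contrast to *Ifng*. Of 34 tested, 9 fell and 1 rose (median log2 fold change −0.81), and 10 were lower and 1 higher against the day 18 control alone. *Oas2*, which senses double-stranded RNA, stood at 16.0, 16.5 and 21.5 CPM in the controls and 1.21, 4.41 and 1.02 CPM in mid liver (log2 fold change −3.10 ± 0.83, adjusted p = 0.0309), and *Oasl2* at 25.7, 23.2 and 35.1 CPM against 2.71, 8.19 and 4.06 CPM (−2.59 ± 0.64, adjusted p = 0.0262). All mid libraries were below all controls for both, and here the day 18 control was the highest. *Ifi27l2a* rose (323, 165 and 113 CPM against 513, 295 and 468 CPM, 1.17 ± 0.30, adjusted p = 0.0258), although mid 2 was below control 1.

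In the BCL2 family and the caspases, 7 of 22 genes rose and 3 fell (31.8% and 13.6%, beside 17.3% and 13.9% of all genes), and 5 were higher and none lower against the day 18 control alone. *Bcl2*, which protects resting T cells from death, stood at 243, 293 and 190.3 CPM in the controls and 88.7, 158 and 147 CPM in mid liver (log2 fold change −0.94 ± 0.26, adjusted p = 0.0302), with no overlap but a difference of −0.30 from the day 18 control alone (adjusted p = 0.29). The A1 genes *Bcl2a1b* (3.51 ± 0.83, adjusted p = 0.0255) and *Bcl2a1d* (4.01 ± 0.96, adjusted p = 0.0257), which protect activated cells, rose, but they are near-identical copies between which reads cannot be assigned with certainty. *Bbc3*, encoding the death-promoting protein PUMA, fell by 1.28 ± 0.28 (adjusted p = 0.022, and 0.11 against the day 18 control alone).

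Among 22 writers, erasers and other modifiers of chromatin, 11 rose and 4 fell, and 6 were higher and 2 lower against the day 18 control alone. *Uhrf1*, which maintains DNA methylation through replication, stood at 11.7, 11.6 and 13.2 CPM in the controls and 268, 129.6 and 318 CPM in mid liver (log2 fold change 4.28 ± 0.85, adjusted p = 0.022), *Ezh2*, the H3K27 methyltransferase, rose by 2.46 ± 0.61 (adjusted p = 0.0269), and its relative *Ezh1* fell by 0.92 ± 0.25 (adjusted p = 0.0274, and 0.075 against the day 18 control alone). *Tet1*, which oxidizes methylated cytosine, was at 13.5, 22.7 and 17.5 CPM against 3.83, 6.16 and 4.30 CPM (−1.89 ± 0.32, adjusted p = 0.0217). S100, annexin and galectin genes, typical of activated and migrating cells, had 10 of 17 members that rose and none that fell. *Anxa2* stood at 40.4, 17.1 and 6.60 CPM against 983, 557 and 708 CPM (5.33 ± 1.09, adjusted p = 0.022), and *S100a4* at 6.59, 1.52 and 0.38 CPM against 151, 31.3 and 139 CPM (5.75 ± 1.17, adjusted p = 0.022). Both are also expressed by myeloid cells, whose marker sums are given above, and the part of these cells was not tested. Of the 17, 6 were higher and none lower against the day 18 control alone, and *S100a4* did not pass (adjusted p = 0.056). In the GIMAP family 1 of 8 rose (12.5%, beside 17.3% of all genes). It was *Gimap7* (1.55 ± 0.31, adjusted p = 0.022), with a log2 difference of 1.44 from the day 18 control alone.

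Genes of the respiratory chain, the mitochondrial ribosome and the proteasome showed small rises in most members. Of 77 respiratory chain genes 50 rose and none fell (median log2 fold change 0.86), of 78 mitochondrial ribosome genes 50 and none (0.81), and of 42 proteasome genes 29 and none (0.96). All mid libraries stood above all controls in 23, 47 and 26 of the members tested, beside 21.3% of all genes. *Ndufa12* of complex I stood at 50.3, 33.3 and 33.4 CPM in the controls and 230.4, 72.5 and 83.2 CPM in mid liver (log2 fold change 1.54 ± 0.39, adjusted p = 0.0259), *Mrps6* of the mitochondrial ribosome rose by 2.29 ± 0.50 (adjusted p = 0.023), and *Psma4* of the proteasome by 1.34 ± 0.29 (adjusted p = 0.022). Of 81 genes of the cytosolic ribosome 8 rose and 1 fell (9.88% and 1.23%, beside 17.3% and 13.9% of all genes), with a median of 0.21. These calls depended on the series term: without it 1, 2, 0 and 0 genes of the 4 lists rose. Against the day 18 control alone, 20, 13, 22 and 1 were higher.

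Transcript length moved with these values. The genes were divided into 4 classes of equal size by transcript length. In the class of the shortest transcripts (up to 1494 bases) the median log2 difference of mid liver minus control was 0.52 in TG and 0.20 in XC, and in the class of the longest (above 3739 bases) it was −0.56 and −0.28. The lists of the respiratory chain, the mitochondrial ribosome and the cytosolic ribosome have median lengths of 720, 1179 and 661 bases, beside 2492 over all genes. Taken gene by gene relative to the median of the own length class, the median log2 fold change was 0.58 for the respiratory chain, 0.52 for the mitochondrial ribosome, 0.68 for the proteasome and −0.09 for the cytosolic ribosome. The mitosis list kept 4.06, cytokines 3.81, lymphoid homing −1.60 and naive and memory factors −0.76 on the same scale. The cause of the shift with length was not tested.

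The series were also compared with each other, TG with 1 library per group and XC with 2 mid libraries and 2 controls. Of the 14616 genes, 1 (0.00684%) differed in its log2 fold change between TG and XC by the interaction of group and series. It was *Morf4l1-ps1*, a pseudogene, at 19.2, 57.3 and 49.8 CPM in the controls and 0, 61.5 and 60.8 CPM in mid liver, that is, without a count in mid 1. Kallisto divides the reads of such copies with the parent gene, so its count is uncertain. In edgeR's test 443 genes had an unadjusted interaction p below 0.05, as had 88 of the 4568 genes that changed.

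By direction, the changes were often larger in TG. Of the 2533 genes that rose, 1780 rose by more in TG than in XC, and of the 2035 that fell, 1590 fell by more in TG. *Fos*, *Jun* and *Dusp1* differed between mid 1 and control 1 by −5.74, −5.53 and −5.69 on the log2 scale, and between the XC libraries by −2.65, −1.78 and −1.56 (adjusted p of the interaction 1 for each). The cytotoxic list had a median difference of 2.998 in TG and 1.42 in XC. Conversely, the median of the co-inhibitory receptors was 0.66 in TG and 2.66 in XC, and that of the effector and exhaustion factors 1.01 and 2.37. The TG control is from day 0, whereas the XC controls are from day 0 and day 18. The XC values average controls of both days, so the series and the day of the controls cannot be told apart in these medians. Against the day 18 control alone the 2 medians were 3.64 and 2.05. *Ctla4* differed by 1.24 in TG and 4.60 in XC, and *Hif1a*, the hypoxia factor, by 0.45 and 1.97. *Hif1a* stood at 70.6, 121 and 114 CPM in the controls and 96.5, 465 and 456 CPM in mid liver. Its XC controls of day 0 and day 18 were thus close to each other. Mitosis (4.07 and 3.91), cytokines (4.19 and 4.47), glycolysis (1.25 and 1.39) and lymphoid homing (−1.79 and −1.66) had similar medians in both. A higher difference in TG than in XC was seen in 6877 of all 14616 genes. It was seen in 71 of 77 respiratory chain genes and 77 of 78 mitochondrial ribosome genes. The same held for 71 of 81 cytosolic ribosome genes and 36 of 42 proteasome genes. Among other lists of short transcripts it was seen in 10 of 15 cytotoxic genes (median 1283 bases) and 10 of 19 cytokine genes (1310 bases).

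**Figure D5:**
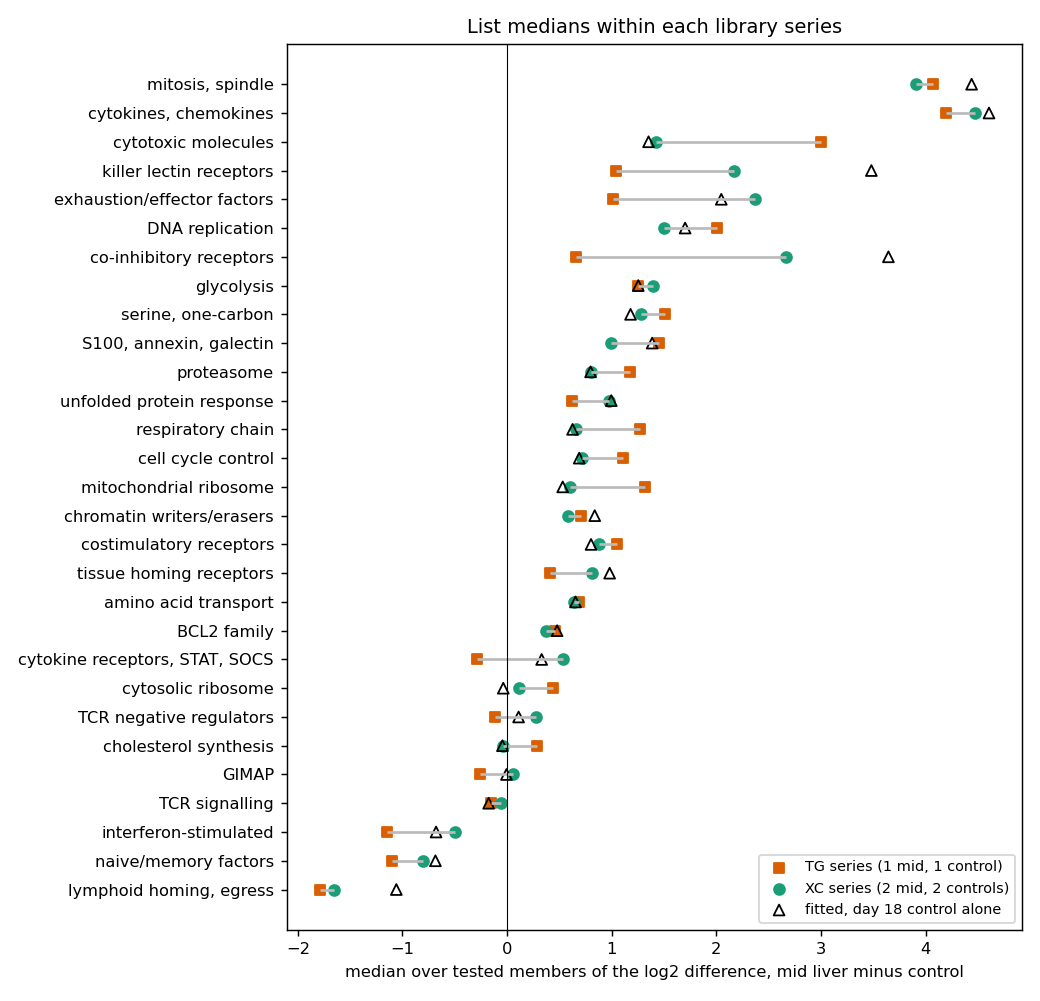
Median over the tested members of each gene list of the log2 difference of mid liver minus control within the TG series (squares) and the XC series (circles), with open triangles for the median log2 fold change against the day 18 control alone. Co-inhibitory receptors lie at 0.66 in TG and 2.66 in XC, cytotoxic molecules at 2.998 and 1.42, and the lymphoid homing list is below 0 in both.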

How the data were processed

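Low-input RNA-seq libraries of sorted TCR Tg101 cells were sequenced by the authors in 2 batches and quantified with kallisto (per the labels and methods, against mm10 or GRCm38). Estimated counts and TPM per transcript were deposited by the authors. Versions and annotation are not given in the sources used here. Transcripts were matched to GENCODE vM21 (98.3% of 118783 transcripts, holding 98.998% to 99.1426% of counts) and estimated counts were summed per gene, then over repeat runs, and rounded. Deposited TPM served only to compare genes. The oligo-dT library was left out. Intervals from counting were not needed: the number of libraries limits the precision, and it is not stated whether replicates came from separate mice, so p-values measure the spread between these libraries, which may be technical.

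Tests were confined to the 14616 genes that reached 10 counts in 6 or more of 11 libraries. edgeR 4.0.16 (quasi-likelihood, robust, TMM, two-sided) in R 4.3.3 fitted group and title series over 11 libraries, with Benjamini-Hochberg adjustment and a threshold of 0.05. They were the control, early liver, mid liver and late liver libraries and 1 spleen library of undivided cells from leukemia-bearing mice at day 18. CPM used the summed counts of tested genes times the TMM factor, and log2 CPM a prior count of 2. The series difference was tested as an interaction term. Alternatives were DESeq2 1.42.0, RLE scaling, other count filters, no series term, fewer libraries, other controls and single runs. The scripts were tested on simulated data. Tables and plots used Python 3.11.15, pandas 2.3.3 and matplotlib 3.10.9.

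The comparison and the gene lists were chosen with earlier results of these data known. Genes were named by rule: the 5 largest rises and 5 largest falls among called genes of mean log2 CPM of at least 5 without overlap, the 3 largest called rises and falls of each list, and members of the receptor, cytotoxic, cytokine, transcription factor and lymphoid homing lists; some genes that the rule names are not reported here. Promoters came from RefSeq (GRCm38.p6).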

Additional observations from a re-analysis of the deposited data

Results flagged for a closer look

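*Morf4l1-ps1*, a pseudogene, stood out because its change differed between the library series in a test of the difference itself: the log2 fold change in TG minus that in XC was −12.8 (edgeR's quasi-likelihood test of the interaction, adjusted p = 0.00836). It had no count in mid 1, the TG mid library, so the size of this difference depends on how the model treats a count of 0 and is neither an estimate nor a bound.

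A further library, from the spleen of a leukemia-bearing mouse at day 14, was not used in the comparison. In it the 5 genes with the largest rises in mid liver were above the highest control. *Xcl1* stood at 62.9 CPM, *Gzmb* at 114 CPM, *Ccl4* at 13.4 CPM, *Pdcd1* at 32.1 CPM and *Tnfrsf9* at 132 CPM. Each of these values was also below the lowest mid liver library. It is 1 library, and no test was made.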

How the results depend on the processing

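Against 4568 called genes, 1388 were called without the series term, 2952 with the XC libraries alone and 2336 with the day 0 controls alone. With the day 18 control alone 1 gene was called in the model with the early liver libraries and 2233 in the model without them, the latter chosen after the data were seen. Leaving out 1 control or mid library gave 0 to 3157 called genes (0 without mid 1 or mid 3), and 3476 to 5561 in the model without early liver; the cause was not tested. The other alternatives, DESeq2 (5456), RLE scaling, other count filters, fewer libraries and first runs, kept the count within 1.5 times. The series difference was called in 2 genes when the model had no series difference of its own for the late liver group. All 138 named genes with a test kept their direction under every alternative. Counted over genes and alternatives, 935 results no longer passed the threshold, 74 newly passed it and 2303 stayed the same. Leaving out control 1, control 2, mid 1 or mid 3 from the main model each left 127 of the 138 no longer passing.

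Of 29 list medians 26 kept their direction. The median log2 fold change of cholesterol genes (0.17) turned to −0.030 with XC alone, to −0.044 against the day 18 control (−0.0442 and −0.0441 with and without early liver) and to −0.0316 without control 1 in the model without early liver, and ranged from −0.0314 to 0.264 with 1 library left out. That of GIMAP genes (0.01) was −0.00515 without early liver, −0.00585 and −0.00588 against the day 18 control with and without early liver, and −0.0195, −0.00231 and −0.0465 in the model without early liver when control 2, control 3 or mid 2 was left out. It ranged from −0.0446 to 0.0893 with 1 library left out of the main model. That of the cytosolic ribosome (0.21) was −0.0361 and −0.0362 against the day 18 control with and without early liver. No paired analysis was possible because the libraries of both groups share only a number, given in order of accession, and no pairing in the labels.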
